A study of Mus musculus with 21 samples.

Results

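The 39 genes described here encode enzymes and membrane transporters of central carbon metabolism in mouse macrophages. Of these, 22 act in glycolysis and its lactate branch, 5 in the pentose phosphate pathway and 12 in the tricarboxylic acid (TCA) cycle. They were chosen by name from a list of mouse gene symbols, and each symbol matched 1 Ensembl identifier, which gave 39 of the 47069 identifiers in the count table. All 39 passed the filter on low counts, so every one of them was tested.

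Total RNA was sequenced from macrophages grown in culture from bone marrow, with the growth factor M-CSF. All mice were labelled as wild-type C57BL/6 animals with an age between 8 and 10 weeks, so no mutation or transgene was stated for any group. The 7 groups of 3 libraries were untreated cells at 0 h (Ctrl_0h), cells given tumour necrosis factor (TNF_6h and TNF_24h), cells given interleukins 4 and 13 (IL_6h and IL_24h), and cells given all 3 cytokines (IL_TNF_6h and IL_TNF_24h). Each cytokine was used at 10 ng/ml, and the name of a group gives the time of sampling. There was no untreated group at 6 h or 24 h, so in every comparison with Ctrl_0h the cytokine and the time in culture cannot be told apart.

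Glycolysis splits glucose into pyruvate in the cytosol, and pyruvate is either turned into lactate and exported or carried into mitochondria. The pentose phosphate pathway branches off at glucose 6-phosphate and yields NADPH and pentoses, and the TCA cycle oxidises acetyl groups in mitochondria and supplies succinate, fumarate and citrate. In macrophages, inflammatory activation is known for a high rate of glycolysis, whereas alternative activation by interleukin 4 is known for an active TCA cycle and oxidative phosphorylation.

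Library totals ran from 28.1 M to 48.7 M (mega) counts. Levels are CPM, counts scaled to library size with TMM factors, given for replicates 1, 2 and 3 in this order or as mean ± SD (n = 3). Changes are log2 fold changes ± standard error (SE) from edgeR's quasi-likelihood test, and a gene was called when its Benjamini-Hochberg adjusted p over 15581 genes was below 0.05. Nothing in the labels ties the 3 libraries of a group to different mice or dishes. A p-value therefore reflects no more than the scatter of these libraries, which may be technical. In bulk RNA, fewer cells of a type and less RNA per cell cannot be told apart.

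By single genes the libraries fell into 3 sets. Xist was at most 0.145 CPM and Ddx3y at least 41.8 CPM in IL_24h and IL_TNF_24h, whereas Xist was at least 162 CPM and Ddx3y had 0 counts in the 15 other libraries. Ifi202b was between 30.3 and 64.2 CPM in IL_6h and IL_TNF_6h and had 0 counts elsewhere. The labels do not say whether the sets differ in the sex or the substrain of the mice. Comparisons of TNF with Ctrl_0h, of TNF_24h with TNF_6h and of IL_TNF with IL at 1 time stay inside a set, whereas in IL against Ctrl_0h the cytokines and the set cannot be told apart. The 7 macrophage markers summed to between 11567 and 39907 CPM in every library, and those of neutrophils, fibroblasts and stromal cells, B cells, erythroid cells, and mast cells and basophils to at most 11.8 CPM. Of the 7 macrophage markers Lyz2 had the highest mean in every group, from 6830 CPM in IL_24h to 31000 CPM in TNF_6h. The 7 did not move together. From Ctrl_0h to IL_24h the mean of Csf1r went from 2050 to 2650 CPM and that of Fcgr1 from 169 to 27.6 CPM. The summed markers of T and NK cells reached 30.4 CPM in TNF_6h and those of dendritic cells 28.4 CPM in IL_TNF_24h. In TNF_6h the mean of Cd4 was 29.1 CPM. The other T and NK cell markers, Cd3e, Cd3d, Cd3g, Cd8a, Ncr1 and Klrb1c, had means of at most 0.112 CPM there. In IL_TNF_24h Zbtb46 and Ccr7 made up nearly all of the dendritic cell sum, and Flt3, Siglech and Xcr1 had means of at most 0.203 CPM. The 7 genes of dividing cells summed to between 882 and 1029 CPM in Ctrl_0h, 103 and 121 CPM in TNF_6h, 621 and 761 CPM in TNF_24h, 52.8 and 69.1 CPM in IL_6h, 71.8 and 103 CPM in IL_TNF_6h, 397 and 426 CPM in IL_24h and 51.9 and 260.0 CPM in IL_TNF_24h. The part of these differences in the results was not tested. Replicate 2 of IL_6h was the lowest of its group for 33 of the 39 genes, replicate 3 of IL_TNF_6h for 29 and replicate 2 of Ctrl_0h for 26. Replicate 2 of Ctrl_0h also had the lowest library total (28.1 M) and counts for 27761 identifiers, where every other library had counts for 16996 to 20631. Every comparison with Ctrl_0h uses this library, and so does every difference between TNF with and without IL. The cause of its deviation was not tested.

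The 250 bases before the annotated start are printed for 4 genes. Slc2a1, Hk2 and Pfkfb3 were taken because they had the largest rises among the glycolytic genes in TNF_6h and in TNF_24h. Ldha was taken because, with TMM scaling, it was not called in any comparison of TNF with its control. The sequences are those of RefSeq in GRCm38.p6, read 5′ to 3′ on the strand of the gene. Capitals mark the letters ACGTG on either strand (CACGT when read on the other), the core to which hypoxia-inducible factors (HIF) are known to bind.
Slc2a1 (chr4:119108495-119108744, forward strand): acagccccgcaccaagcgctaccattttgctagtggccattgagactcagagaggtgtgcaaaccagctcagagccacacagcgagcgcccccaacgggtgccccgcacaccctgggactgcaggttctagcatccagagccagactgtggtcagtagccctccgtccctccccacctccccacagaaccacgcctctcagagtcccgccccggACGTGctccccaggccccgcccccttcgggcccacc
Hk2 (chr6:82774455-82774704, reverse strand): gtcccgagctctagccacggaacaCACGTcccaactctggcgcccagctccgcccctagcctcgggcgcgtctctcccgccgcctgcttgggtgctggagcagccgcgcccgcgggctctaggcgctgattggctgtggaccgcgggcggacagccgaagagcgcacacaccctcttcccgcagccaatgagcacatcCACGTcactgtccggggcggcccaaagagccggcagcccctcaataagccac
Pfkfb3 (chr2:11553930-11554179, reverse strand): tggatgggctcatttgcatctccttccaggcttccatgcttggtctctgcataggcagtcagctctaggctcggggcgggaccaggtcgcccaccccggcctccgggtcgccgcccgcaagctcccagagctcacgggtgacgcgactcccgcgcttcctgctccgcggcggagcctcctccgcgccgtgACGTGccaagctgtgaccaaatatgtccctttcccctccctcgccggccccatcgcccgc
Ldha (chr7:46845554-46845803, forward strand): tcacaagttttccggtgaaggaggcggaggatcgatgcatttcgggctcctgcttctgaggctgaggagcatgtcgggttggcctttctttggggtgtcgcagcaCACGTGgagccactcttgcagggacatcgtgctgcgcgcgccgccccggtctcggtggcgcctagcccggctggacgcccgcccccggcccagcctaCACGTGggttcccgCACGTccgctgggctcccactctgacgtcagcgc
Slc2a1 and Pfkfb3 held the core once and Hk2 held it in 2 places. Ldha held 5 matches, of which 4 belonged to 2 copies of the palindrome CACGTG, in which the core is read on both strands. Pfkfb3 and Ldha each have 2 listed starts, of which 1 is shown. The other window of Pfkfb3 held 2 matches, both in 1 copy of CACGTG, and that of Ldha held 0 matches.

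The table of promoters held 38 of the 39 genes, some with several starts. Searched on both strands in this window, ACGTG was found for 15 of the 38, namely 12 of 22 glycolytic genes, 0 of 5 pentose phosphate genes and 3 of 11 TCA cycle genes. The share over all 27025 genes searched was 18.5%. CACGTG, the E-box, was found for 4 glycolytic genes, 0 pentose phosphate genes and 1 TCA cycle gene, against 6.86% of all genes searched, and each of these matches also counts as ACGTG. The search left out promoters on chromosome 18, where none of the 39 genes lies. The shares over all genes searched were not matched for base composition, and the 4 printed windows had between 66.4% and 69.6% G and C. An excess over these shares was not tested. A match describes letters in the window and is not evidence of binding.

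Over the 39 genes, 28 had no overlap between the libraries of TNF_6h and Ctrl_0h, where 50.0% of all tested genes had none. The count was 26 for TNF_24h against Ctrl_0h (48.8% of all genes), 17 for TNF_24h against TNF_6h (42.0%), 9 for IL_TNF_6h against IL_6h (27.2%), 26 for IL_TNF_24h against IL_24h (36.4%), 31 for IL_6h against Ctrl_0h (64.0%) and 36 for IL_24h against Ctrl_0h (69.8%). Ctrl_0h had the highest group mean for 11 of the 39 genes, of which 7 were glycolytic, and the lowest for 9, of which 6 were glycolytic. IL_TNF_24h had the highest mean for another 11, namely 3 glycolytic genes, 3 of the 5 pentose phosphate genes and 5 of the 12 TCA cycle genes. IL_TNF_6h had the lowest mean for 12 genes. The ratio of the highest to the lowest group mean ran from 1.27 for Sucla2 to 13.3 for Ldhb.

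**Figure D1:**
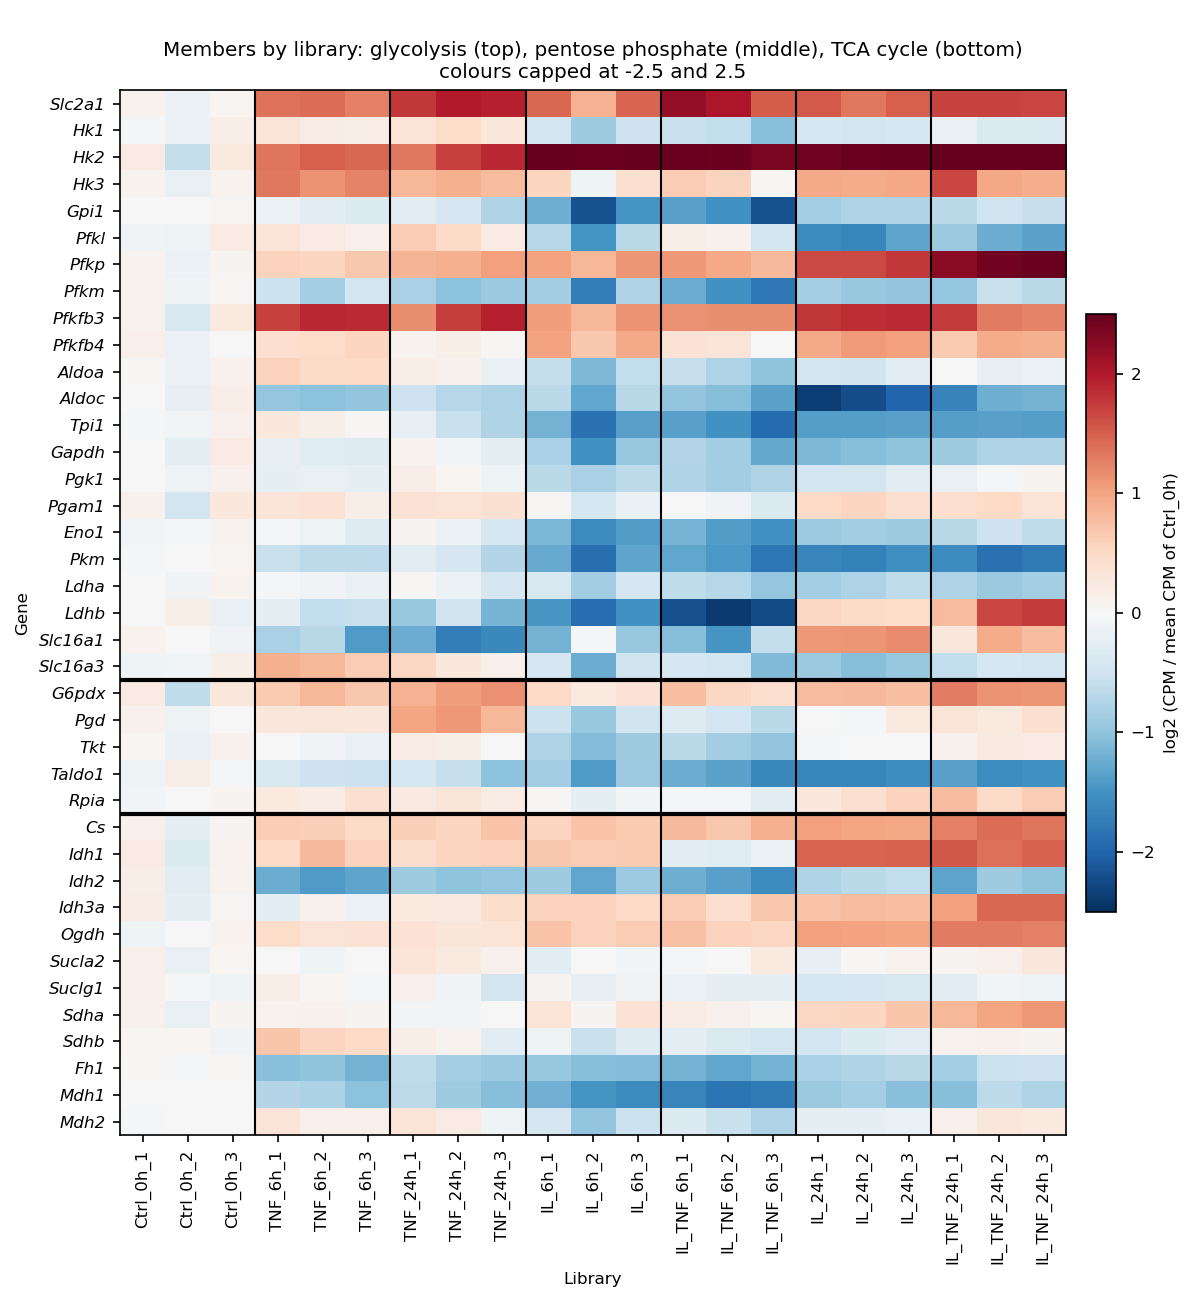
Each row is 1 of the 39 genes and each column 1 of the 21 libraries. Colour gives log2 of the CPM over the mean CPM of Ctrl_0h, with blue lower and red higher and the scale capped at -2.5 and 2.5, so that Hk2, with 16.4, 9.501 and 17.0000 CPM in Ctrl_0h and at least 35.8 CPM elsewhere, is red in all treated libraries, and Fh1 is blue in all of them.

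Glycolytic genes together took 1.88% ± 0.0960 of all counts in Ctrl_0h, 1.45% ± 0.00977 in TNF_6h and 1.48% ± 0.114 in TNF_24h (SD, n = 3). With IL their share was 1.01% ± 0.163 in IL_6h, 0.940% ± 0.123 in IL_TNF_6h, 1.07% ± 0.0351 in IL_24h and 1.15% ± 0.0189 in IL_TNF_24h. The 3 libraries of Ctrl_0h, between 1.79% and 1.98%, lay above the 18 treated libraries, of which the highest had 1.59%. These shares use library totals. On the TMM scale the 22 genes summed to 18772 ± 1264 CPM in Ctrl_0h, 16668 ± 752 in TNF_6h and 16527 ± 2095 in TNF_24h, where the highest library of TNF_24h (18465 CPM) lay above the lowest of Ctrl_0h (17603 CPM). Pkm alone had 7170 ± 229.8 CPM in Ctrl_0h, 4688 ± 180.5 in TNF_6h and 5165 ± 799.5 in TNF_24h. The sums and shares thus follow Pkm more than any other of the 22 genes. Per length of exons (RPKM), the abundant genes in Ctrl_0h were Pkm at 2999 ± 96.1, Gapdh at 1514 ± 232 and Aldoa at 568 ± 52.5 RPKM. The scarce ones were Pfkfb3 at 1.11 ± 0.238, Slc16a1 at 2.296 ± 0.147, Hk2 at 2.396 ± 0.698 and Ldhb at 3.01 ± 0.319 RPKM.

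With TNF alone Slc2a1, Hk2, Hk3, Pfkp and Pfkfb3, which act on glucose entry and at the phosphofructokinase step, rose at both times. Pfkm, Aldoc, Pkm and Slc16a1 fell at both times. In TNF_6h 8 of the 22 genes rose and 4 fell, where 18.8% of all tested genes were called higher and 20.5% lower. In TNF_24h 6 rose and 6 fell, against 20.9% and 24.4% of all genes. The share of the 22 genes that were called was 54.5% at both times, against 39.3% and 45.3% of all genes. The median log2 fold change was 0.18 at 6 h and 0.04 at 24 h, against -0.04 and -0.09 over all genes tested. In TNF_24h against TNF_6h, 2 were higher and 3 lower (12.7% and 10.9% of all genes). Scaling by library totals moved the median of all genes by -0.21 in TNF_6h and by -0.16 in TNF_24h against Ctrl_0h. It also changed the split over the 39 genes from 13 higher and 8 lower to 11 and 15 in TNF_6h, and from 11 and 10 to 9 and 14 in TNF_24h, and in TNF_24h against TNF_6h from 4 and 4 to 7 and 4.

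With IL alone Slc2a1, Hk2, Pfkp, Pfkfb3 and Pfkfb4 rose at both times. Hk1, Gpi1, Pfkl, Pfkm, Slc16a3 and every gene from aldolase to Ldha except Pgam1 fell at both times. In IL_6h against Ctrl_0h 5 rose and 15 fell, where 32.8% of all genes were called higher and 31.6% lower. In IL_24h 8 rose and 13 fell, against 31.7% and 32.6% of all genes. Those called made up 90.9% and 95.5% of the 22 genes, against 64.5% and 64.3% of all genes. The median was -0.69 in IL_6h and -0.43 in IL_24h, against -0.01 and -0.06 over all genes. Library totals moved the median of all genes by 0.16 in IL_6h.

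TNF added to IL raised Slc2a1 and Pfkl and lowered Pfkfb4 at 6 h, and raised Pfkp, Aldoc, Pgk1 and Ldhb at 24 h. In IL_TNF_6h against IL_6h 2 rose and 1 fell (7.09% and 6.98% of all genes), and in IL_TNF_24h against IL_24h 4 rose and 0 fell (6.03% and 5.08% of all genes). The median was -0.05 at 6 h and 0.25 at 24 h, against -0.01 and 0.00 over all genes. In IL_TNF_24h 26 of the 39 genes, namely 15 glycolytic, 3 pentose phosphate and 8 TCA cycle genes, did not overlap with IL_24h, against 36.4% of all genes, while 9 were called. Library totals gave 2 higher and 6 lower of the 39 genes in IL_TNF_6h, in place of 2 and 2, and 8 and 1 in IL_TNF_24h, in place of 9 and 0. The effect of TNF with IL was also tested against its effect without IL, as a difference of the log2 fold changes at 1 time. This test sets a change inside 1 set of libraries against a change inside another, and TNF alone was set against 0 h, so IL, set and time cannot be told apart in it. It was lower with IL for 6 and higher for 1 of the 22 genes at 6 h (9.13% and 9.27% of all genes), and lower for 3 and higher for 4 at 24 h (12.5% and 11.6%). With library totals the split over the 39 genes was 6 higher and 8 lower at 6 h, in place of 3 and 9, and 15 and 4 at 24 h, in place of 9 and 5. With IL present, the effect of TNF was higher at 24 h than at 6 h for 3 of the 22 genes and lower for 0 (1.89% and 1.78% of all genes, 3.68% in all).

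Slc2a1 encodes the main glucose transporter of macrophages. It had 28.2, 24.2 and 27.5 CPM in the libraries of Ctrl_0h, 68.7, 70.3 and 63.7 CPM in TNF_6h and 90.6, 106 and 102 CPM in TNF_24h. With IL it had 72.6, 49.01 and 72.8 CPM in IL_6h, 122, 109 and 76.5 CPM in IL_TNF_6h, 76.7, 66.3 and 74.9 CPM in IL_24h and 86.1, 86.2 and 85.4 CPM in IL_TNF_24h. All 18 treated libraries lay above the 3 of Ctrl_0h, and TNF_24h lay above TNF_6h without overlap. It rose in TNF_6h (log2 fold change 1.34 ± 0.16, adjusted p 1.3e-06), further in TNF_24h against TNF_6h (0.56 ± 0.15, 0.0116), and in IL_6h and IL_24h (1.28 ± 0.16 and 1.45 ± 0.16). TNF on top of IL raised it at 6 h (log2 fold change 0.66 ± 0.15, adjusted p 0.00516), and at 24 h the change was 0.24 ± 0.15 (adjusted p 0.433), although the groups did not overlap. The TNF effect was lower with IL than without (difference -0.68 ± 0.22 at 6 h and -1.66 ± 0.22 at 24 h, adjusted p 0.0348 and 1.88e-05). The call in IL_TNF_6h was lost without replicate 1 of IL_TNF_6h (0.52), and also when its 2 groups were fitted alone (adjusted p 0.0887). The difference at 6 h was not called in 7 of the 21 fits that each left out 1 library (-0.92 to -0.58 over all 21, adjusted p up to 0.104), and that between the times of TNF was not called without replicate 3 of TNF_6h (0.52) or replicate 2 of TNF_24h (0.51).

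The hexokinases, with 3 genes among the 22, trap glucose in the cell by phosphorylation. Hk2, the inducible form, had 16.4, 9.501 and 17.0000 CPM in Ctrl_0h, 35.95, 40.5 and 38.5 CPM in TNF_6h and 35.8, 47.1 and 52.97 CPM in TNF_24h. It had 81.4, 79.7 and 84.2 CPM in IL_6h, 79.3, 77.8 and 73.5 CPM in IL_TNF_6h, 77.5, 79.6 and 81.6 CPM in IL_24h and 101, 108 and 112 CPM in IL_TNF_24h. The treated libraries all lay above Ctrl_0h, and the 12 libraries with IL lay above the 6 with TNF alone, a comparison that crosses the sets. IL_TNF_24h lay above IL_24h without overlap. Hk2 rose in TNF_6h (log2 fold change 1.42 ± 0.16, adjusted p 1.19e-06), TNF_24h (1.66 ± 0.17), IL_6h (2.51 ± 0.17) and IL_24h (2.47 ± 0.17). With IL the effect of TNF was -0.09 ± 0.16 at 6 h and 0.43 ± 0.16 at 24 h (adjusted p 0.845 and 0.0997), lower with IL than without (difference -1.51 ± 0.23 and -1.23 ± 0.23, adjusted p 0.000114 and 0.000556). The change at 24 h was called with the 2 groups fitted alone (adjusted p 0.00414) and with DESeq2's Wald test (0.0417). It was also called without replicate 2 of Ctrl_0h (0.0117), and with replicate 3 of TNF_6h and replicate 1 of IL_TNF_24h left out as well (0.017).

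Hk3 was the most abundant hexokinase per length, with between 81.4% and 88.8% of the summed RPKM of the 3 genes in the 7 group means. It had 356, 293 and 354 CPM in Ctrl_0h, 836, 729 and 788 CPM in TNF_6h and 594, 615 and 576 CPM in TNF_24h. In the IL groups it had 488, 312 and 439 CPM in IL_6h, 517, 492 and 344 CPM in IL_TNF_6h, 644, 639 and 653 CPM in IL_24h and 1061, 653 and 627 CPM in IL_TNF_24h. Both TNF groups lay above Ctrl_0h, IL_6h overlapped with it, and replicate 1 stood above the other libraries of IL_TNF_24h. Hk3 rose in TNF_6h (log2 fold change 1.23 ± 0.19, adjusted p 3.94e-05), TNF_24h (0.83 ± 0.19) and IL_24h (0.95 ± 0.19), and the effect of TNF at 6 h was lower with IL than without (difference -1.10 ± 0.27, adjusted p 0.007). Hk1, the constitutive form, stayed between 71.8 and 203 CPM over all libraries, rose in TNF_24h (0.36 ± 0.13) and fell in IL_6h (-0.61 ± 0.13) and IL_24h (-0.45 ± 0.13). The rise of Hk1 in TNF_24h was not called without replicate 1 of Ctrl_0h (0.35), replicate 2 of Ctrl_0h (0.28), replicate 1 of TNF_24h (0.37) or replicate 2 of TNF_24h (0.31), or with library totals (0.20). The share of Hk2 in the hexokinases was 2.14% ± 0.429 in Ctrl_0h, 2.69% ± 0.327 in TNF_6h and 3.96% ± 0.800 in TNF_24h, and 10.2% ± 1.97 in IL_6h and 6.62% ± 0.134 in IL_24h, while that of Hk1 went from 15.7% ± 0.922 in Ctrl_0h to 6.32% ± 0.0588 in IL_24h.

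**Figure D2:**
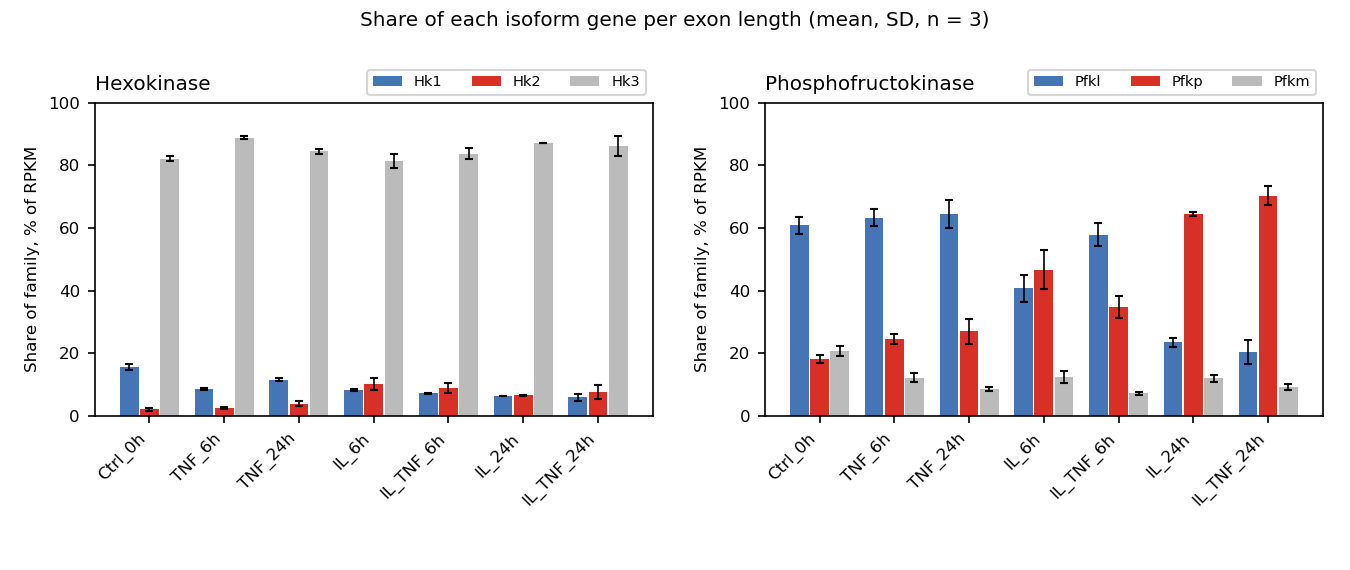
Bars give the mean share of each gene in the summed RPKM of its family, in percent, for hexokinases (left) and phosphofructokinases (right) in the 7 groups, with the SD over 3 libraries as error bars. Hk3 held at least 81.4% in every group, whereas Pfkp went from 18.2% in Ctrl_0h to 64.4% in IL_24h and 70.3% in IL_TNF_24h.

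Gpi1 encodes the isomerase that turns glucose 6-phosphate into fructose 6-phosphate, at the branch point to the pentose phosphate pathway. It went from 1065 ± 17.03 CPM in Ctrl_0h to 357 ± 112 CPM in IL_6h (log2 fold change -1.58 ± 0.20, adjusted p 1.93e-06) and 614 ± 17.01 CPM in IL_24h (-0.79 ± 0.20). It was not called with TNF in any comparison inside a set, with estimates between -0.46 and 0.21. The libraries of TNF_6h (-0.26 ± 0.20, adjusted p 0.328) and TNF_24h (-0.46 ± 0.20, adjusted p 0.0679) nevertheless lay below Ctrl_0h without overlap. The fall in TNF_24h was called in 5 alternative fits, among them library totals (-0.63, adjusted p 0.00711) and the 2 groups fitted alone (0.0327). That in TNF_6h was called in 2 alternative fits.

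Phosphofructokinase catalyses the committed step of glycolysis, and its 3 genes moved in different directions with IL. Pfkp, the platelet form, had 89.2, 75.9 and 87.999 CPM in Ctrl_0h, 126, 122 and 135 CPM in TNF_6h and 151, 156 and 172 CPM in TNF_24h, and 266, 266 and 288 CPM in IL_24h and 401, 447 and 468 CPM in IL_TNF_24h. These 5 groups did not overlap with each other in any pair, and the 6 libraries of IL_6h and IL_TNF_6h lay between 148 and 180.1 CPM. Pfkp rose in TNF_6h (0.60 ± 0.11), TNF_24h (0.92 ± 0.11), IL_6h (0.98 ± 0.11) and IL_24h (log2 fold change 1.69 ± 0.11, adjusted p 3.99e-10). TNF with IL raised it at 24 h (log2 fold change 0.68 ± 0.11, adjusted p 0.000166) and left it at -0.03 ± 0.11 at 6 h (adjusted p 0.926), a difference between the times of 0.72 ± 0.15 (adjusted p 0.00889). At 6 h the effect on Pfkp was lower with IL than without (difference -0.63 ± 0.15, adjusted p 0.00641).

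Pfkl, the liver form, fell from 132 ± 16.6 CPM in Ctrl_0h to 70.1 ± 20.3 CPM in IL_6h (-0.92 ± 0.20) and 46.7 ± 5.71 CPM in IL_24h (log2 fold change -1.50 ± 0.20, adjusted p 3.01e-06). With TNF alone Pfkl changed by 0.22 ± 0.20 in TNF_6h (adjusted p 0.404) and by 0.45 ± 0.20 in TNF_24h (adjusted p 0.0711). TNF_24h (180 ± 26.9 CPM) lay above Ctrl_0h without overlap, and this change was called in 7 alternative fits. Added to IL, TNF raised Pfkl at 6 h, from 81.2, 46.7 and 82.5 CPM in IL_6h to 148, 142 and 95.6 CPM in IL_TNF_6h (log2 fold change 0.87 ± 0.20, adjusted p 0.00413), and these 2 groups did not overlap. This call was lost when the 2 groups were fitted alone (0.88, adjusted p 0.058), and at 24 h the change was 0.34 ± 0.20 (adjusted p 0.367). Pfkm, the muscle form, fell in TNF_6h (-0.60 ± 0.19), TNF_24h (-0.92 ± 0.19), IL_6h (-1.06 ± 0.19) and IL_24h (-0.92 ± 0.19), and the effect of TNF at 24 h was higher with IL than without by 1.11 ± 0.27 (adjusted p 0.00601). The fall of Pfkm in TNF_6h was not called without replicate 1 of Ctrl_0h (-0.55) or replicate 2 of TNF_6h (-0.49), and the rise of Pfkp from TNF_6h to TNF_24h (0.32 ± 0.11) was not called in 7 of the 21 fits that each left out 1 library (0.27 to 0.36 over all 21, adjusted p up to 0.134).

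Per length, Pfkl made up 60.9% ± 2.76 of phosphofructokinase in Ctrl_0h and Pfkp 18.2% ± 1.197. In IL_6h these shares were 40.8% ± 4.33 and 46.8% ± 6.09 and overlapped between libraries. In IL_24h they were 23.5% ± 1.54 and 64.4% ± 0.687, with Pfkp above Pfkl in all 3 libraries. TNF alone left Pfkl the larger part, with 64.4% ± 4.52 against 27.003% ± 4.06 in TNF_24h, as did IL with TNF at 6 h (57.9% ± 3.67 against 34.9% ± 3.501). These shares rest on the union of annotated exons as the length and were not tested.

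Pfkfb3 and Pfkfb4 encode bifunctional enzymes that set the level of fructose 2,6-bisphosphate, the activator of phosphofructokinase. Pfkfb3 had 8.26, 5.95 and 9.201 CPM in Ctrl_0h, 25.6, 28.6 and 28.4 CPM in TNF_6h and 17.5, 25.8 and 30.1 CPM in TNF_24h. The IL libraries had 16.1, 13.8 and 17.01 CPM in IL_6h, 17.2, 17.4 and 17.5 CPM in IL_TNF_6h, 26.9, 27.9 and 28.6 CPM in IL_24h and 26.4, 19.3 and 18.5 CPM in IL_TNF_24h. Every treated library lay above Ctrl_0h, and IL_TNF_24h lay below IL_24h without overlap. Pfkfb3 rose in TNF_6h (log2 fold change 1.82 ± 0.19, adjusted p 2.4e-07), TNF_24h (1.65 ± 0.18), IL_6h (1.00 ± 0.18) and IL_24h (1.83 ± 0.18). With IL the effect of TNF was 0.15 ± 0.18 at 6 h and -0.38 ± 0.18 at 24 h, neither of them called (adjusted p 0.74 and 0.22). It was lower with IL than without (difference -1.67 ± 0.26 and -2.02 ± 0.25, adjusted p 0.00013 and 1.11e-05). In the fit without 3 libraries (replicate 3 of TNF_6h, replicate 1 of IL_TNF_24h, replicate 2 of Ctrl_0h), the fall in IL_TNF_24h was called (-0.55, adjusted p 0.0357).

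Pfkfb4 went the other way from Slc2a1 with TNF on top of IL at 6 h, where it fell from 88.6 ± 10.3 to 56.4 ± 7.68 CPM (log2 fold change -0.65 ± 0.12, adjusted p 0.000508). It rose in TNF_6h (0.47 ± 0.12), IL_6h (0.88 ± 0.12) and IL_24h (1.01 ± 0.12), and was lower in TNF_24h than in TNF_6h (-0.38 ± 0.12). Its response to TNF at 6 h was lower with IL than without (difference -1.13 ± 0.17, adjusted p 8.91e-05). The rise in TNF_6h was not called with library totals (0.27), and the fall between the times of TNF was not called in 6 of the 21 fits that each left out 1 library (-0.41 to -0.35 over all 21, adjusted p up to 0.091).

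**Figure D3:**
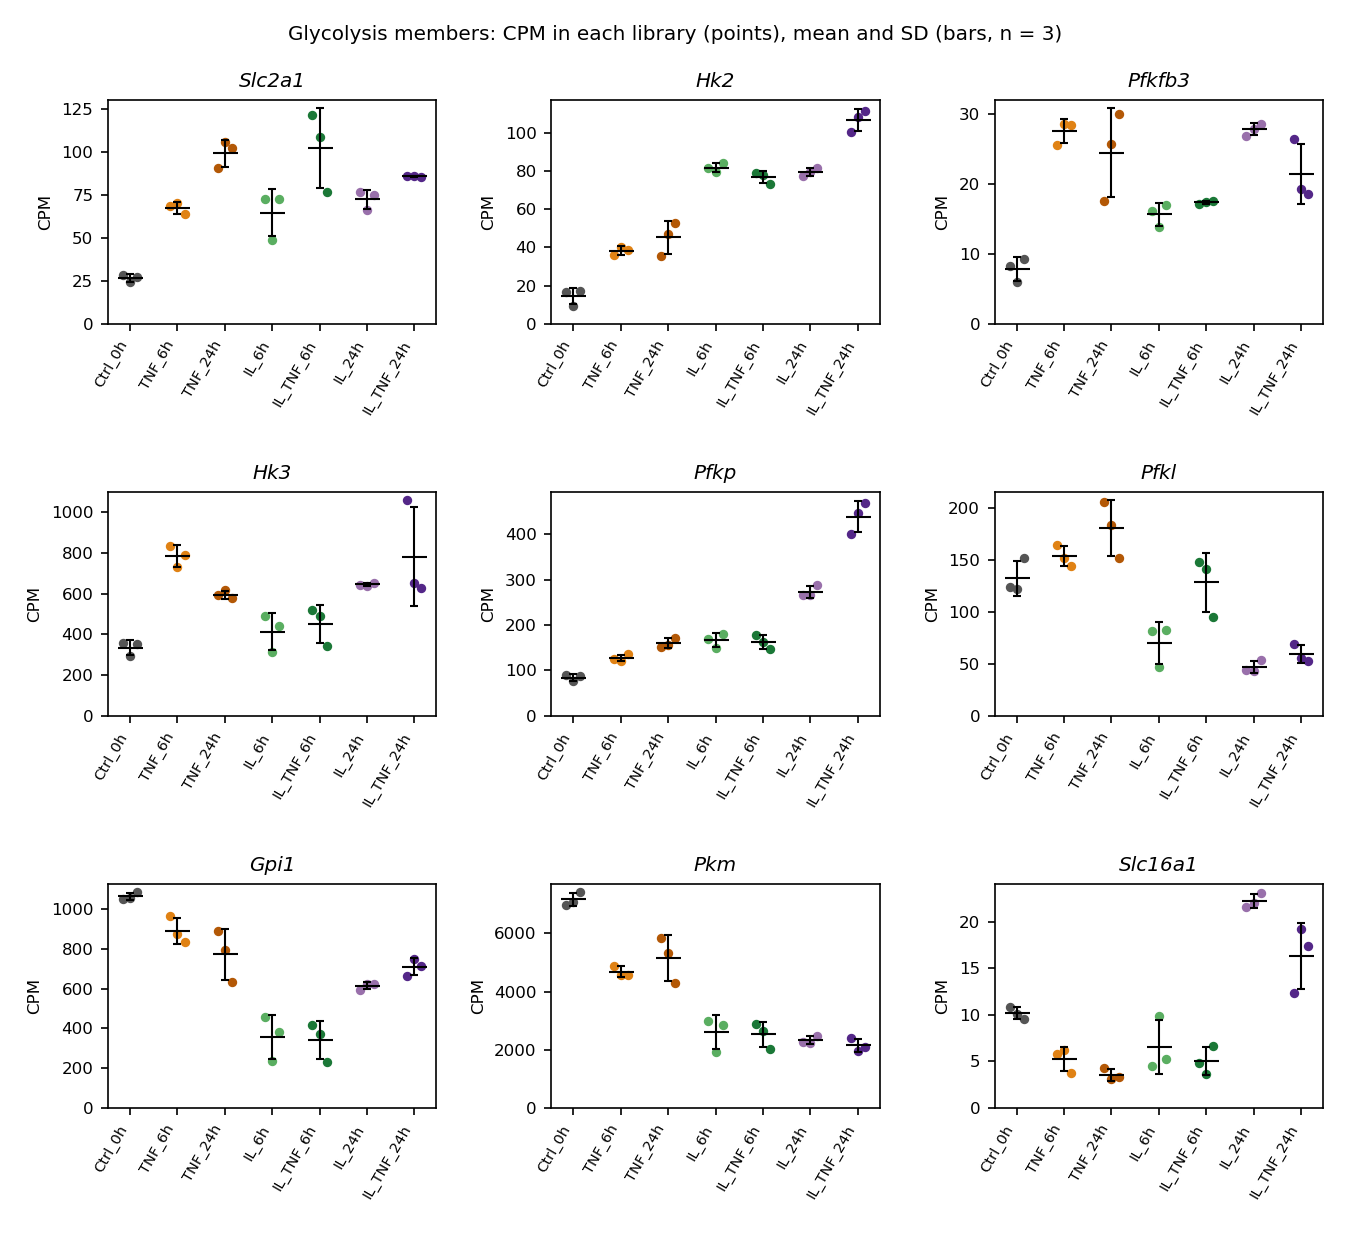
Each panel gives 1 glycolytic gene, with the 7 groups on the horizontal axis and CPM on a linear vertical axis that starts at 0. Points are libraries and bars are mean and SD (n = 3), and Slc2a1, Hk2 and Pfkfb3 are lowest in Ctrl_0h while the mean of Pkm is highest there.

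From aldolase to pyruvate kinase the genes were lower with IL, apart from Pgam1. Aldoa and Aldoc (aldolase), Tpi1 (triose phosphate isomerase), Gapdh, Pgk1 (phosphoglycerate kinase), Eno1 (enolase) and Pkm (pyruvate kinase) each fell in both IL_6h and IL_24h. The falls in IL_6h ran from -1.46 for Pkm and -1.44 for Tpi1 to -0.71 for Pgk1, and those in IL_24h from -2.17 for Aldoc to -0.41 for Pgk1 and -0.41 for Aldoa. Pgam1, the phosphoglycerate mutase, had 437, 294 and 487 CPM in Ctrl_0h, changed by -0.18 ± 0.15 in IL_6h (adjusted p 0.308) and rose in IL_24h (0.48 ± 0.15). Without replicate 2 of Ctrl_0h, Pgam1 fell in IL_6h (-0.37) and was not called in IL_24h (0.29). The fall of Aldoa in IL_24h was not called without replicate 3 of Ctrl_0h (-0.34), replicate 1 of IL_24h (-0.38) or replicate 2 of IL_24h (-0.33). Reads of Gapdh, Aldoa, Eno1, Pgk1, Pgam1, Tpi1, Pkm and Ldha can be shared with near-identical copies, so their levels are uncertain where the counting split them.

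With TNF alone this segment showed smaller and mixed changes. Pkm fell in TNF_6h from 7170.0 ± 229.8 to 4688 ± 180.5 CPM (log2 fold change -0.61 ± 0.16, adjusted p 0.00394) and in TNF_24h to 5165 ± 799.5 CPM (-0.47 ± 0.16). Aldoc fell in TNF_6h (-0.99 ± 0.16) and TNF_24h (-0.66 ± 0.16), Aldoa rose in TNF_6h (0.51 ± 0.14), and Tpi1 fell in TNF_24h (-0.49 ± 0.17). Aldoa and Tpi1 were lower in TNF_24h than in TNF_6h (-0.47 ± 0.14 and -0.63 ± 0.17). Gapdh, Pgk1, Pgam1 and Eno1 were not called in TNF_6h or TNF_24h, with estimates between -0.28 and 0.36. With library totals Gapdh (-0.49), Pgk1 (-0.43) and Eno1 (-0.37) were called lower in TNF_6h, and Eno1 also in TNF_24h (-0.32). A filter of at least 1 CPM in 3 libraries (-0.28) and DESeq2's Wald test (-0.23) also called Pgk1 lower in TNF_6h. Pgam1 was called higher in 2 alternative fits in TNF_6h and in 8 in TNF_24h, there with 0.52 without replicate 3 of Ctrl_0h. The fall of Pkm in TNF_24h was not called without replicate 3 of Ctrl_0h (-0.44), replicate 2 of IL_24h (-0.40) or replicate 3 of TNF_24h (-0.35), that of Tpi1 in 5 of the 21 fits that each left out 1 library (-0.64 to -0.36 over all 21, adjusted p up to 0.126). Between the times of TNF, Aldoa was not called without replicate 1 of TNF_6h (-0.43) or replicate 3 of TNF_24h (-0.37), and Tpi1 without replicate 3 of TNF_24h (-0.51).

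TNF on top of IL called no gene of this segment at 6 h, where the estimates lay between -0.26 and 0.12. At 24 h Aldoc rose from 13.98, 15.4 and 17.9 to 22.3, 30.3 and 31.2 CPM (log2 fold change 0.83 ± 0.16, adjusted p 0.00169), without overlap. Pgk1 rose as well (0.36 ± 0.10), a call that was lost without replicate 1 of IL_24h (0.32), replicate 2 of IL_24h (0.34), replicate 2 of IL_TNF_24h (0.36) or replicate 3 of IL_TNF_24h (0.29). The effect of TNF on Aldoc was higher with IL than without by 0.73 ± 0.23 at 6 h and 1.49 ± 0.23 at 24 h, and with IL it was higher at 24 h than at 6 h by 1.09 ± 0.23 (adjusted p 0.0314, 0.000103 and 0.00941). The difference at 6 h was not called in 9 of the 21 fits that each left out 1 library (0.48 to 0.84 over all 21, adjusted p up to 0.112), with 0.48 without replicate 2 of IL_6h.

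Lactate dehydrogenase turns pyruvate into lactate and back, and the 2 subunit genes differed. Ldha had 962, 918 and 1031 CPM in Ctrl_0h, 948, 918 and 869 CPM in TNF_6h and 989, 877 and 723 CPM in TNF_24h. In cells given IL the values were 739, 529.7 and 730.0 CPM in IL_6h, 626, 591 and 499 CPM in IL_TNF_6h, 535, 569 and 623 CPM in IL_24h and 571, 508 and 539 CPM in IL_TNF_24h. The TNF groups overlapped with Ctrl_0h, and all 12 libraries with IL lay below it. Ldha fell in IL_6h (log2 fold change -0.54 ± 0.14, adjusted p 0.00175, and -0.35 without replicate 2 of IL_6h) and IL_24h (-0.75 ± 0.14), while the 4 estimates for TNF lay between -0.22 and -0.09 and were not called (adjusted p at least 0.321). With library totals Ldha was called lower in TNF_6h (-0.30) and TNF_24h (-0.34).

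Ldhb was scarce, with 4.73 ± 0.500 CPM in Ctrl_0h. It fell in IL_6h to 1.55 ± 0.254 CPM (log2 fold change -1.61 ± 0.23, adjusted p 6.91e-06) and in TNF_24h to 2.64 ± 0.622 CPM (-0.84 ± 0.23). In IL_TNF_24h it had 8.13, 14.98 and 15.96 CPM against 6.78, 6.58 and 6.5005 CPM in IL_24h, a rise (log2 fold change 0.98 ± 0.22, adjusted p 0.00443) in which replicate 1 stood below the other libraries. At 24 h the effect of TNF on Ldhb was higher with IL than without by 1.82 ± 0.32, and with IL it was higher at 24 h than at 6 h by 1.64 ± 0.33 (adjusted p 0.00031 and 0.00574).

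The monocarboxylate transporters Slc16a1 and Slc16a3 carry lactate across the plasma membrane. Slc16a3, the form known for lactate export from glycolytic cells, had 98.9, 102 and 118 CPM in Ctrl_0h, 196, 187 and 165 CPM in TNF_6h and 152, 127 and 116 CPM in TNF_24h. Its levels with IL were 78.97, 45.1 and 75.2 CPM in IL_6h, 79.1, 76.5 and 49.3 CPM in IL_TNF_6h, 55.97, 50.5 and 55.1 CPM in IL_24h and 69.6, 77.9 and 75.8 CPM in IL_TNF_24h. TNF_6h lay above Ctrl_0h without overlap, TNF_24h overlapped with it by replicate 3 and the IL groups lay below it. Slc16a3 rose in TNF_6h (log2 fold change 0.78 ± 0.19, adjusted p 0.00227), changed by 0.31 ± 0.18 in TNF_24h (adjusted p 0.176), and fell in IL_6h (-0.67 ± 0.19, and -0.41 without replicate 2 of IL_6h) and IL_24h (-0.98 ± 0.19). TNF on top of IL gave 0.04 ± 0.18 at 6 h (adjusted p 0.952). At 24 h it gave 0.47, which was not called, although the groups did not overlap. This change was called with the 2 groups fitted alone (0.48, adjusted p 0.00495). The difference between TNF with and without IL at 6 h (-0.74) was not called, but was in 7 alternative fits.

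Slc16a1 had 10.8, 10.1 and 9.56 CPM in Ctrl_0h, 5.797, 6.26 and 3.82 CPM in TNF_6h and 4.29, 3.08 and 3.34 CPM in TNF_24h. With IL it had 4.51, 9.92 and 5.26 CPM in IL_6h, 4.87, 3.65 and 6.69 CPM in IL_TNF_6h, 21.6, 21.98 and 23.1 CPM in IL_24h and 12.4, 19.2 and 17.4 CPM in IL_TNF_24h. The TNF groups lay below Ctrl_0h, IL_24h and IL_TNF_24h above it, and replicate 2 of IL_6h reached its range. Slc16a1 fell in TNF_6h (-0.94 ± 0.27) and TNF_24h (log2 fold change -1.51 ± 0.28, adjusted p 0.00019), fell in IL_6h (-0.63 ± 0.26) and rose in IL_24h (1.13 ± 0.26). The TNF effect at 24 h was higher with IL than without by 1.06 ± 0.37 (adjusted p 0.0457). The fall in TNF_6h was not called without replicate 3 of TNF_6h (-0.75), the fall in IL_6h in 16 of the 21 fits that each left out 1 library (-1.01 to -0.41 over all 21, adjusted p up to 0.205), and the difference at 24 h in 15 of the 21 fits that each left out 1 library (0.93 to 1.21 over all 21, adjusted p up to 0.118).

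Among 28 other tested genes of glycolysis and pyruvate entry, 9 rose and 3 fell in TNF_6h (18.8% and 20.5% of all genes), 11 and 6 in TNF_24h (20.9% and 24.4%), 2 and 4 in IL_TNF_6h against IL_6h (7.09% and 6.98%), and 4 and 2 in IL_TNF_24h against IL_24h (6.03% and 5.08%). The hexose transporter gene Slc2a6 rose in each of these comparisons, from 103 ± 20.8 to 765 ± 44.7 CPM in TNF_6h (2.89 ± 0.21) and by 3.87 ± 0.22, 1.83 ± 0.20 and 1.28 ± 0.20 in the others. Slc2a3, another glucose transporter, fell in TNF_6h (-1.38 ± 0.17), TNF_24h (-1.49 ± 0.17) and IL_TNF_6h against IL_6h (-1.25 ± 0.16). In TNF_24h the transporter gene Slc2a8 (-1.93 ± 0.20) and the pyruvate dehydrogenase kinase gene Pdk2 (-1.23 ± 0.16) fell and the mutase gene Pgam2 rose (1.76 ± 0.33), and Pdk3 was higher in TNF_24h than in TNF_6h (1.02 ± 0.15).

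The pentose phosphate genes took 0.189% ± 0.00577 of all counts in Ctrl_0h, 0.157% ± 0.00247 in TNF_6h, 0.196% ± 0.00797 in TNF_24h, 0.123% ± 0.0133 in IL_6h, 0.114% ± 0.00988 in IL_TNF_6h, 0.154% ± 0.00634 in IL_24h and 0.173% ± 0.00658 in IL_TNF_24h. On the TMM scale they summed to 1883 ± 38.2 CPM in Ctrl_0h, 1806 ± 52.1 in TNF_6h, whose libraries overlapped with it, and 2184 ± 196 in TNF_24h. With TNF alone the oxidative genes G6pdx and Pgd were the ones that rose, and Taldo1 of the non-oxidative branch fell. Of the 5 genes, 1 rose and 1 fell in TNF_6h (18.8% and 20.5% of all genes), and 2 and 1 in TNF_24h (20.9% and 24.4%), with medians of 0.28 and 0.24 against -0.04 and -0.09 over all genes. In IL_6h 0 rose and 3 fell (32.8% and 31.6% of all genes), and in IL_24h 2 and 1 (31.7% and 32.6%). TNF on top of IL called none of the 5, with estimates between -0.34 and 0.38, where 14.1% of all genes were called at 6 h and 11.1% at 24 h.

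G6pdx encodes glucose 6-phosphate dehydrogenase, the entry enzyme of the pathway, on chromosome X. It had 132, 73.4 and 139 CPM in Ctrl_0h, 180.3, 204 and 184 CPM in TNF_6h and 210.0, 236 and 252 CPM in TNF_24h. In the IL groups it had 161, 136 and 148 CPM in IL_6h, 192, 163 and 154 CPM in IL_TNF_6h, 198, 202 and 193 CPM in IL_24h and 278, 249 and 245 CPM in IL_TNF_24h. Replicate 2 of Ctrl_0h stood below the other replicates, both TNF groups lay above Ctrl_0h, and IL_6h overlapped with it. G6pdx rose in TNF_6h (log2 fold change 0.72 ± 0.17, adjusted p 0.00194), TNF_24h (log2 fold change 1.02 ± 0.17, adjusted p 6.06e-05) and IL_24h (0.79 ± 0.17), and its change in IL_6h was 0.37 ± 0.17 (adjusted p 0.0585). IL_TNF_24h lay above IL_24h without overlap, by 0.38 ± 0.17 (adjusted p 0.177), which was called in the fit without replicate 2 of Ctrl_0h (adjusted p 0.018) and when the 2 groups were fitted alone (0.00976).

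Pgd, the second oxidative enzyme and like G6pdx a source of NADPH, had 493, 423 and 465 CPM in Ctrl_0h, 560.3, 562 and 560.5 CPM in TNF_6h and 917, 975 and 816 CPM in TNF_24h. The IL libraries had 319, 239 and 324 CPM in IL_6h, 367, 331 and 290.4 CPM in IL_TNF_6h, 456, 449 and 543 CPM in IL_24h and 576, 549 and 609 CPM in IL_TNF_24h. The libraries of TNF_24h lay above all others, and those of IL_6h and IL_TNF_6h below all others. Pgd rose in TNF_24h (log2 fold change 0.97 ± 0.13, adjusted p 3.77e-06), also against TNF_6h (0.69 ± 0.13), and fell in IL_6h (-0.65 ± 0.13), and its change in TNF_6h was 0.28 ± 0.13 (adjusted p 0.0795). Its response to TNF at 24 h was lower with IL than without (difference -0.71 ± 0.18, adjusted p 0.00679).

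In the non-oxidative branch, Taldo1 (transaldolase) fell in TNF_6h (-0.48 ± 0.15), TNF_24h (-0.66 ± 0.15), IL_6h (-1.05 ± 0.15) and IL_24h (log2 fold change -1.61 ± 0.16, adjusted p 5.95e-08), from 815 ± 78.1 CPM in Ctrl_0h to 267 ± 9.49 CPM in IL_24h. The effect of TNF on Taldo1 at 24 h was higher with IL than without by 0.79 ± 0.22 (adjusted p 0.0122), which was not called without replicate 2 of IL_24h (0.71). Its fall in TNF_6h was not called without replicate 2 of Ctrl_0h (-0.40), replicate 2 of TNF_6h (-0.46), replicate 3 of TNF_6h (-0.45) or replicate 2 of IL_24h (-0.40). Tkt (transketolase) fell in IL_6h (log2 fold change -0.91 ± 0.11, adjusted p 8.34e-07) and changed by -0.01 ± 0.11 in IL_24h (adjusted p 0.936). Rpia (ribose 5-phosphate isomerase), between 13.2 and 27.6 CPM over all libraries, rose in IL_24h (log2 fold change 0.42 ± 0.12, adjusted p 0.00471) and was not called in the 4 comparisons of TNF with its control.

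Of 7 other tested genes of the pathway, 3 rose and 2 fell in TNF_6h (18.8% and 20.5% of all genes), 1 and 4 in TNF_24h (20.9% and 24.4%), 0 and 1 in IL_TNF_6h against IL_6h (7.09% and 6.98%), and 0 and 0 in IL_TNF_24h against IL_24h (6.03% and 5.08%). The epimerase gene Rpe rose in TNF_24h (1.10 ± 0.16) and Prps2, which makes the phosphoribosyl donor of nucleotide synthesis, fell in TNF_6h (-1.25 ± 0.16).

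The TCA cycle genes took 0.150% ± 0.00117 of all counts in Ctrl_0h, 0.134% ± 0.00299 in TNF_6h and 0.129% ± 0.00230 in TNF_24h. Their share was 0.150% ± 0.00389 in IL_6h and 0.127% ± 0.00310 in IL_TNF_6h, and 0.184% ± 0.00327 in IL_24h and 0.212% ± 0.0180 in IL_TNF_24h. The 6 libraries of IL_24h and IL_TNF_24h, from 0.180% upwards, lay above the 15 others, of which the highest had 0.154%. The lower share with TNF alone rests on library totals. On the TMM scale the 12 genes summed to 1503 ± 79.9 CPM in Ctrl_0h, 1536 ± 66.8 in TNF_6h and 1439.9 ± 82.2 in TNF_24h, and both TNF groups overlapped with Ctrl_0h. Cs, Idh1 and Ogdh rose in all 4 comparisons of TNF alone or IL alone with Ctrl_0h, and Idh2, Fh1 and Mdh1 fell in all 4. Of the 12 genes, 4 rose and 3 fell in TNF_6h (18.8% and 20.5% of all genes), 3 and 3 in TNF_24h (20.9% and 24.4%), 5 and 5 in IL_6h (32.8% and 31.6%) and 5 and 5 in IL_24h (31.7% and 32.6%). The medians were 0.07, 0.08, -0.09 and -0.12, against -0.04, -0.09, -0.01 and -0.06 over all genes. Added to IL, TNF raised 0 and lowered 1 at 6 h (7.09% and 6.98% of all genes). At 24 h it raised 5 and lowered 0 (6.03% and 5.08%), with a median of 0.28 against 0.00.

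Cs encodes citrate synthase, which brings acetyl groups into the cycle. It went from 99.4 ± 12.1 CPM in Ctrl_0h to 147 ± 7.65 in TNF_6h (log2 fold change 0.57 ± 0.10, adjusted p 0.00021), 152 ± 10.5 in TNF_24h (0.62 ± 0.10), 155 ± 9.97 in IL_6h (0.64 ± 0.10) and 198 ± 4.004 in IL_24h (1.00 ± 0.10). Ogdh, a subunit of the oxoglutarate dehydrogenase complex, went from 81.9 ± 5.64 CPM in Ctrl_0h to 108 ± 4.84 in TNF_6h (0.39 ± 0.09), 104 ± 2.52 in TNF_24h (0.34 ± 0.09), 128 ± 5.63 in IL_6h (0.64 ± 0.09) and 164 ± 1.43 in IL_24h (log2 fold change 1.00 ± 0.09, adjusted p 1.55e-08). With TNF on top of IL at 24 h Cs rose by 0.33 ± 0.10 to 249.8 ± 11.7 CPM and Ogdh by 0.28 ± 0.09 to 199.7 ± 3.797 CPM (adjusted p 0.0404 and 0.0381). For both genes the libraries of IL_TNF_24h lay above those of IL_24h. These calls were near the threshold. That of Cs was lost in 14 of the 21 fits that each left out 1 library (0.30 to 0.37 over all 21, adjusted p up to 0.146), and that of Ogdh in 12 of the 21 fits that each left out 1 library (0.27 to 0.30 over all 21, adjusted p up to 0.125). With library totals the rises of Ogdh in TNF_6h (0.19) and TNF_24h (0.18) were not called. At 6 h the effect of TNF on Ogdh was lower with IL than without (difference -0.42 ± 0.12, adjusted p 0.0213), not called without replicate 1 of Ctrl_0h (-0.38), replicate 2 of IL_TNF_6h (-0.41) or replicate 1 of TNF_6h (-0.39).

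The isocitrate dehydrogenases moved apart. Idh1, the cytosolic NADP-dependent enzyme, had 133, 90.8 and 122 CPM in Ctrl_0h, 163, 203 and 171 CPM in TNF_6h and 156, 168 and 172 CPM in TNF_24h. In cells given IL the values were 184, 179 and 181 CPM in IL_6h, 94.8, 92.9 and 104 CPM in IL_TNF_6h, 318, 318 and 322 CPM in IL_24h and 336, 298 and 320.4 CPM in IL_TNF_24h. IL_TNF_6h lay within the range of Ctrl_0h and below IL_6h without overlap, whereas IL_TNF_24h overlapped with IL_24h. Idh1 rose in TNF_6h (0.63 ± 0.12), TNF_24h (0.52 ± 0.12), IL_6h (0.65 ± 0.12) and IL_24h (log2 fold change 1.47 ± 0.12, adjusted p 8.62e-09). TNF on top of IL lowered it at 6 h (log2 fold change -0.90 ± 0.12, adjusted p 2.31e-05), and at 24 h it was not called (adjusted p 0.996 there, with means of 319 ± 2.46 and 318 ± 19.2 CPM), a difference between the times of 0.89 ± 0.17 (adjusted p 0.00376). The TNF effect was lower with IL than without (difference -1.53 ± 0.17 at 6 h and -0.52 ± 0.17 at 24 h, adjusted p 5.18e-06 and 0.0323). The latter was not called in 7 of the 21 fits that each left out 1 library (-0.64 to -0.37 over all 21, adjusted p up to 0.0858).

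Idh2, the mitochondrial NADP-dependent enzyme, had 118, 86.4 and 112 CPM in Ctrl_0h, 44.8, 39.6 and 42.6 CPM in TNF_6h and 57.1, 52.8 and 54.2 CPM in TNF_24h. Its levels with IL were 57.2, 43.1 and 56.1 CPM in IL_6h, 45.2, 41.3 and 35.3 CPM in IL_TNF_6h, 62.7, 65.97 and 68.9 CPM in IL_24h and 42.1, 57.4 and 52.7 CPM in IL_TNF_24h. All 18 treated libraries lay below Ctrl_0h, and IL_TNF_24h lay below IL_24h. Idh2 fell in TNF_6h (log2 fold change -1.32 ± 0.14, adjusted p 4.68e-07), TNF_24h (-0.95 ± 0.14), IL_6h (-1.02 ± 0.14) and IL_24h (-0.68 ± 0.14). With IL the effect of TNF was -0.36 ± 0.14 at 6 h and -0.38 ± 0.14 at 24 h, neither called (adjusted p 0.104 and 0.0995), and higher than without IL by 0.96 ± 0.20 and 0.57 ± 0.20 (adjusted p 0.00208 and 0.0415). The difference at 24 h was not called in 17 of the 21 fits that each left out 1 library (0.47 to 0.70 over all 21, adjusted p up to 0.132).

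Idh3a, a subunit of the NAD-dependent enzyme of the cycle, rose in IL_6h (0.55 ± 0.13) and IL_24h (log2 fold change 0.74 ± 0.13, adjusted p 6e-05). It had 42.2, 43.98 and 43.2 CPM in IL_24h and 52.7, 69.4 and 69.7 CPM in IL_TNF_24h, a rise without overlap (log2 fold change 0.57 ± 0.13, adjusted p 0.00496). It was not called in TNF_6h (-0.10) or TNF_24h (0.31), and was higher in TNF_24h than in TNF_6h (0.40 ± 0.13), except without replicate 1 of TNF_6h (0.33), replicate 3 of TNF_6h (0.37), replicate 2 of TNF_24h (0.44) or replicate 3 of TNF_24h (0.33), where this was not called.

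**Figure D4:**
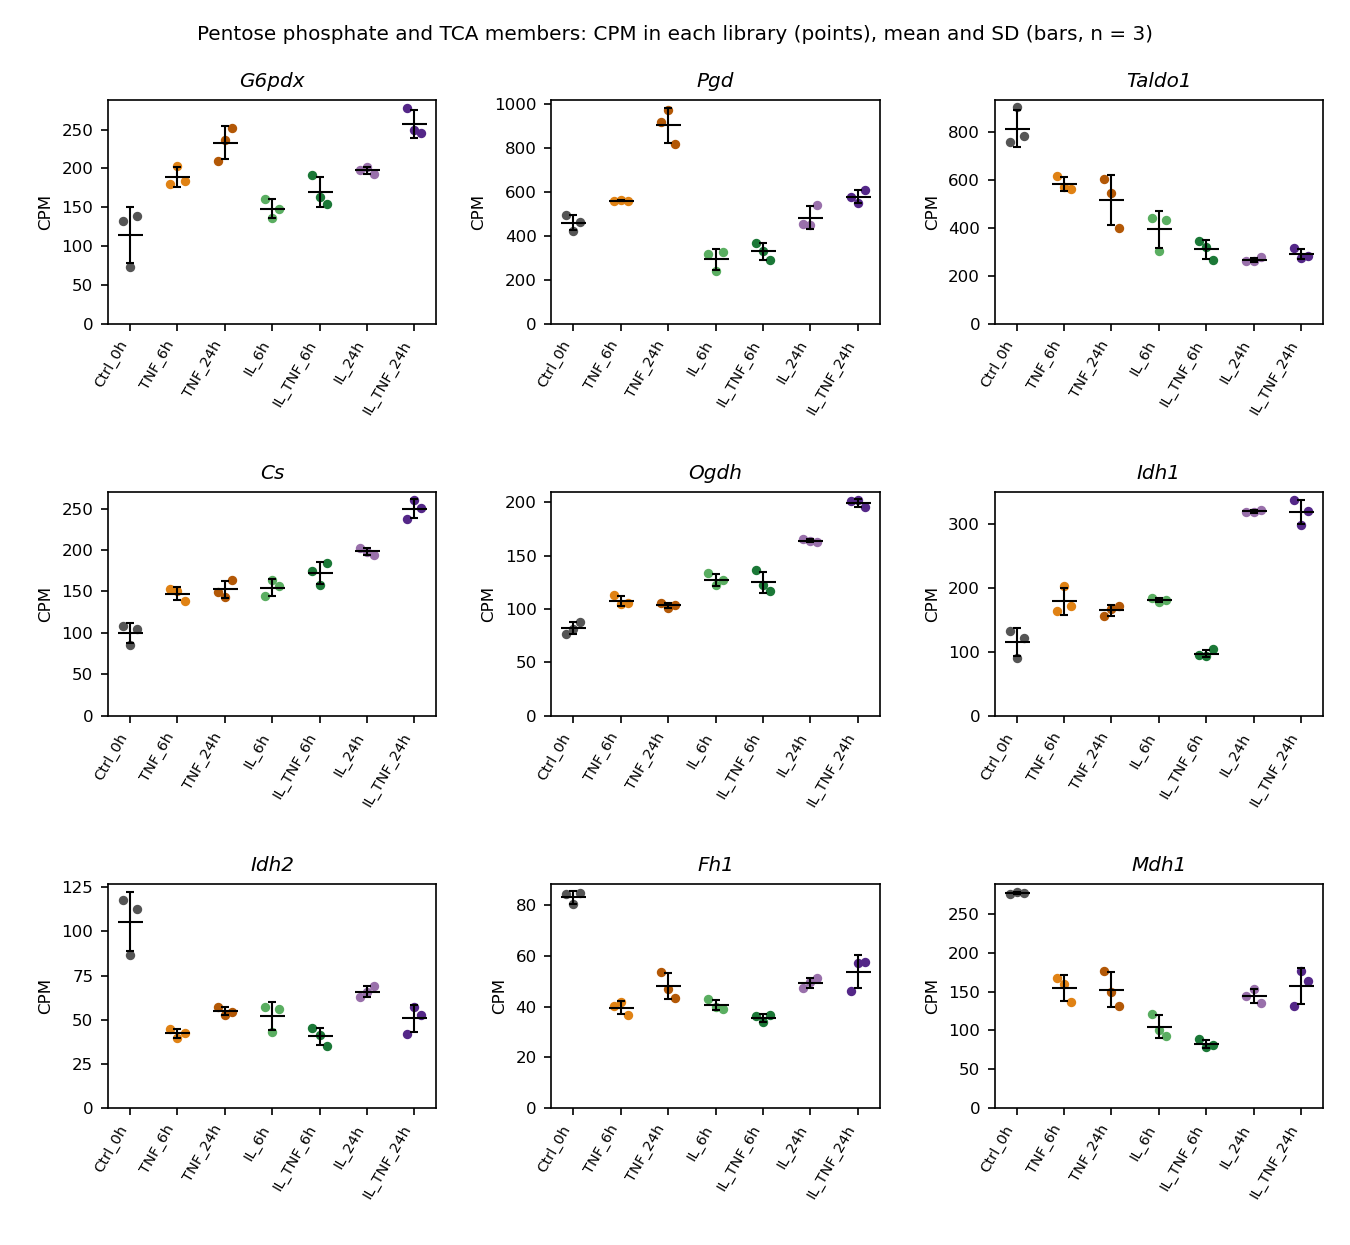
Each panel gives 1 gene of the pentose phosphate pathway (upper row) or the TCA cycle (middle and lower rows), with the 7 groups on the horizontal axis and CPM on a linear vertical axis that starts at 0. Points are libraries and bars are mean and SD (n = 3), and Idh1 returns in IL_TNF_6h to the range of Ctrl_0h, while Idh2, Fh1 and Mdh1 are highest in Ctrl_0h.

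Succinyl-CoA synthetase changed little. Sucla2, its ADP-forming subunit, was not called in any of the 7 comparisons of groups (estimates between -0.12 and 0.26), and Suclg1, the alpha subunit, was called in 1 of them, a fall in IL_24h (log2 fold change -0.42 ± 0.12, adjusted p 0.00493). Sdha, the catalytic subunit of succinate dehydrogenase (complex II), had 247, 202 and 240.2 CPM in Ctrl_0h, 243, 246 and 242 CPM in TNF_6h and 219, 219.9 and 229 CPM in TNF_24h. With IL it had 291, 240.4 and 294 CPM in IL_6h, 259.8, 249 and 237 CPM in IL_TNF_6h, 328, 334 and 369.5 CPM in IL_24h and 411, 458 and 486 CPM in IL_TNF_24h. The TNF groups overlapped with Ctrl_0h, and IL_TNF_24h lay above IL_24h, which lay above every library outside these 2 groups. Sdha rose in IL_6h (0.26 ± 0.11), in IL_24h (log2 fold change 0.58 ± 0.11, adjusted p 9.46e-05) and with TNF on top of IL at 24 h (log2 fold change 0.39 ± 0.11, adjusted p 0.018), where the effect was higher than without IL by 0.44 ± 0.15 (adjusted p 0.0396). The rise in IL_6h was not called without replicate 2 of Ctrl_0h (0.17), replicate 1 of IL_6h (0.22) or replicate 3 of IL_6h (0.22), that of IL_TNF_24h without replicate 1 of IL_24h (0.36), replicate 2 of IL_24h (0.38), replicate 2 of IL_TNF_24h (0.38) or replicate 3 of IL_TNF_24h (0.34), and the difference from TNF alone in 16 of the 21 fits that each left out 1 library (0.35 to 0.53 over all 21, adjusted p up to 0.144). Without replicate 2 of IL_6h the rise in IL_6h was 0.40.

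Sdhb, the iron-sulphur subunit of the same complex, had another pattern. It rose in TNF_6h from 162 ± 8.69 to 243 ± 18.1 CPM (log2 fold change 0.59 ± 0.12, adjusted p 0.000808), was lower in TNF_24h than in TNF_6h (-0.58 ± 0.12), and fell in IL_6h (-0.32 ± 0.12) and IL_24h (-0.36 ± 0.12). Added to IL, TNF raised it at 24 h from 126 ± 8.45 to 172 ± 2.38 CPM (log2 fold change 0.45 ± 0.12, adjusted p 0.0197). At 6 h the effect of TNF was lower with IL than without (difference -0.61 ± 0.17, adjusted p 0.0184). The fall in IL_6h was not called in 7 of the 21 fits that each left out 1 library (-0.42 to -0.17 over all 21, adjusted p up to 0.257), that in IL_24h without replicate 1 of IL_24h (-0.30) or replicate 2 of IL_24h (-0.33), the rise in IL_TNF_24h in 5 of the 21 fits that each left out 1 library (0.39 to 0.49 over all 21, adjusted p up to 0.119), and the difference at 6 h without replicate 1 of IL_6h (-0.51) or replicate 1 of TNF_6h (-0.55). Without replicate 2 of IL_6h, the change in IL_6h was -0.17.

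Fh1, which encodes fumarase, had 84.5, 80.4 and 85.1 CPM in Ctrl_0h, 40.2, 41.7 and 36.9 CPM in TNF_6h and 53.8, 47.03 and 43.6 CPM in TNF_24h. In the IL groups it had 43.1, 39.7 and 39.2 CPM in IL_6h, 36.5, 33.9 and 36.7 CPM in IL_TNF_6h, 47.3, 49.7 and 51.3 CPM in IL_24h and 46.4, 57.2 and 57.8 CPM in IL_TNF_24h. The lowest library of Ctrl_0h lay above the highest of the 18 treated ones. Fh1 fell in TNF_6h (log2 fold change -1.07 ± 0.10, adjusted p 1.16e-07), TNF_24h (-0.79 ± 0.10), IL_6h (-1.03 ± 0.10) and IL_24h (-0.75 ± 0.10). With IL the effect of TNF was -0.19 ± 0.10 at 6 h and 0.12 ± 0.10 at 24 h (adjusted p 0.296 and 0.607), higher than without IL by 0.88 ± 0.15 and 0.91 ± 0.14 (adjusted p 0.000252 and 0.000125).

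The malate dehydrogenases close the cycle and shuttle reducing equivalents between cytosol and mitochondria. Mdh1, the cytosolic form, had 276, 279 and 278 CPM in Ctrl_0h, 168, 159.5 and 136 CPM in TNF_6h and 176, 149.8 and 132 CPM in TNF_24h. The IL libraries had 121, 100.5 and 92.7 CPM in IL_6h, 88.9, 78.2 and 81.3 CPM in IL_TNF_6h, 145, 154 and 135 CPM in IL_24h and 132, 176 and 163 CPM in IL_TNF_24h. Ctrl_0h lay above all treated libraries, and IL_TNF_6h lay below IL_6h without overlap. Mdh1 fell in TNF_6h (log2 fold change -0.84 ± 0.13, adjusted p 4.26e-05), TNF_24h (-0.86 ± 0.13), IL_6h (-1.40 ± 0.13) and IL_24h (-0.94 ± 0.13). TNF on top of IL gave -0.34 ± 0.13 at 6 h and 0.12 ± 0.13 at 24 h (adjusted p 0.106 and 0.741), and at 24 h the effect was higher than without IL by 0.98 ± 0.19 (adjusted p 0.000743). Mdh2, the mitochondrial form, fell in IL_6h (log2 fold change -0.63 ± 0.14, adjusted p 0.000687) and was called in none of the 6 other comparisons of groups. In IL_TNF_24h against IL_24h it changed by 0.44 ± 0.14 (adjusted p 0.0521), and it was called there in 5 of the 21 fits that each left out 1 library, with DESeq2's Wald test (adjusted p 0.0188), with library totals (0.0432) and when the 2 groups were fitted alone (0.00466).

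**Figure D5:**
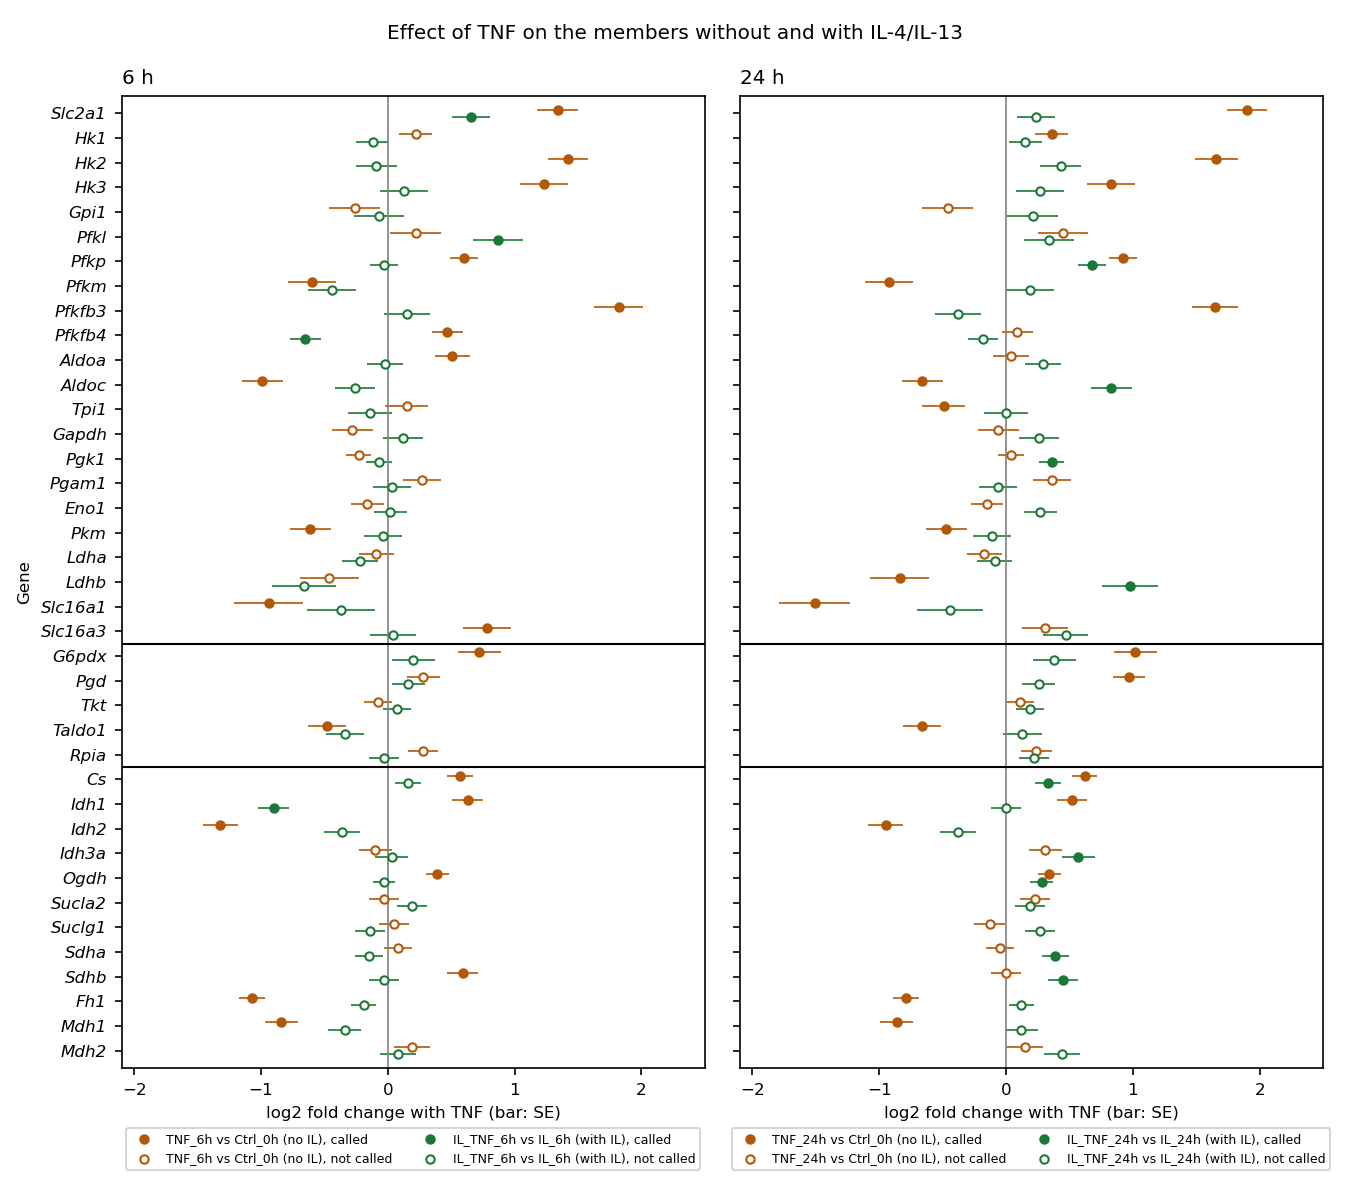
Points give the log2 fold change with TNF for each of the 39 genes at 6 h (left) and 24 h (right), without IL in brown and with IL in green, with the SE as bars. Filled points were called, with 4 filled green points at 6 h and 9 at 24 h, and the brown points of Slc2a1, Hk2 and Pfkfb3 lie to the right of their green points at both times.

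Among 21 other tested genes of the TCA cycle and its side reactions, 6 rose and 5 fell in TNF_6h (18.8% and 20.5% of all genes), 5 and 4 in TNF_24h (20.9% and 24.4%), 2 and 1 in IL_TNF_6h against IL_6h (7.09% and 6.98%), and 5 and 2 in IL_TNF_24h against IL_24h (6.03% and 5.08%). Acod1, the enzyme that takes aconitate out of the cycle to make itaconate, rose with TNF alone from 1.07 ± 0.0372 to 539 ± 18.7 CPM in TNF_6h (8.98 ± 0.26) and to a log2 fold change of 10.47 ± 0.27 in TNF_24h. It also rose with TNF on top of IL, from 90.5 ± 1.54 to 1347 ± 70.4 CPM at 6 h (3.90 ± 0.20) and from 9.67 ± 0.614 to 275 ± 112 CPM at 24 h (4.83 ± 0.21). The carrier gene Slc25a10, which exchanges dicarboxylates for phosphate, rose in IL_TNF_6h against IL_6h (1.26 ± 0.22). Pcx, pyruvate carboxylase, rose in IL_TNF_24h against IL_24h (1.31 ± 0.22) and was higher in TNF_24h than in TNF_6h (1.08 ± 0.21), and Pck2, a mitochondrial enzyme that makes phosphoenolpyruvate, fell in TNF_24h (-1.52 ± 0.14).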

How the data were processed

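RNA-seq was compared over 21 libraries in 7 groups of 3, grouped by the labels' titles. The deposited values are whole-number counts per Ensembl gene, made by the authors with TopHat2 2.0.12, featureCounts of Subread 1.6.3 and GRCm38, with edgeR 3.28.1 also named, per the submitters' processing notes. The annotation, the strand setting and whether pairs or mates were counted are not stated in the sources used here, so reads of genes that overlap on opposite strands cannot be told apart. A symbol was found for 32832 of the 47069 identifiers, and 0 columns of values were left unused.

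All steps from the counts on were run in R 4.3.3. Genes were kept with edgeR's filterByExpr (15581 of 32292 with a count), scaled by TMM and fitted over all 7 groups with edgeR 4.0.16's quasi-likelihood test, with Benjamini-Hochberg adjustment and a threshold of 0.05. The SE is the log2 fold change divided by the root of the F statistic. Alternatives were DESeq2 1.42.0 size factors, library totals, no filter, a filter of at least 1 CPM in 3 libraries, the groups of a comparison alone, DESeq2's Wald test, a replicate block, and fits without 1 library, 3 libraries or, chosen after the data were seen, 2 libraries. RPKM uses the union of exons of GENCODE M1, an approximation.

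The 39 genes and the other lists were chosen with earlier results of these data known. Values are given by library for genes called inside a set with a log2 fold change of at least 1 in either direction, and for Slc2a1, Hk2, Pfkfb3, Ldha, Slc16a3, G6pdx, Pgd, Idh1, Idh2, Sdha and Mdh1. Other genes with values by library (Pfkp, Pfkl, Aldoc, Pgam1, Ldhb and Idh3a) were picked after their values were seen. Genes of the other lists were named where they were called with a log2 fold change of at least 1, in either direction, inside a set. The precision for all 39 genes rests on at least 36 counts per library, which may be mates of a pair, since 30373 values in the table are 2 and 17808 are 1. Protein sequences were not used here.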

Additional observations from a re-analysis of the deposited data

Results flagged for a closer look

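The effect of TNF differed by the test of the difference itself between cells with and without IL for 12 of the 39 genes at 6 h and for 14 at 24 h, and between 24 h and 6 h with IL for 4. Differences are log2 values ± SE from edgeR's quasi-likelihood test, all with an adjusted p below 0.05 over all tested genes, where 18.4%, 24.1% and 3.68% of all genes were called.

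At 6 h the effect was lower with IL than without for 9 genes, namely Pfkfb3 (-1.67 ± 0.26), Idh1 (-1.53 ± 0.17), Hk2 (-1.51 ± 0.23), Pfkfb4 (-1.13 ± 0.17), Hk3 (-1.10 ± 0.27), Slc2a1 (-0.68 ± 0.22), Pfkp (-0.63 ± 0.15), Sdhb (-0.61 ± 0.17) and Ogdh (-0.42 ± 0.12). It was higher with IL for Idh2 (0.96 ± 0.20), Fh1 (0.88 ± 0.15) and Aldoc (0.73 ± 0.23).

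At 24 h it was lower with IL for Pfkfb3 (-2.02 ± 0.25), Slc2a1 (-1.66 ± 0.22), Hk2 (-1.23 ± 0.23), Pgd (-0.71 ± 0.18) and Idh1 (-0.52 ± 0.17). It was higher with IL for Ldhb (1.82 ± 0.32), Aldoc (1.49 ± 0.23), Pfkm (1.11 ± 0.27), Slc16a1 (1.06 ± 0.37), Mdh1 (0.98 ± 0.19), Fh1 (0.91 ± 0.14), Taldo1 (0.79 ± 0.22), Idh2 (0.57 ± 0.20) and Sdha (0.44 ± 0.15). Each of these differences sets a change inside 1 set of libraries against a change inside another, and the TNF-alone side carries time in culture, so cytokine, set and time cannot be told apart in them.

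With IL the effect of TNF was higher at 24 h than at 6 h for Ldhb (1.64 ± 0.33), Aldoc (1.09 ± 0.23), Idh1 (0.89 ± 0.17) and Pfkp (0.72 ± 0.15). These also compare 2 sets of libraries. Groups of 3 libraries are too small for a search for single outlying libraries.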

How the results depend on the processing

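No called change of the 39 genes reversed its direction under any alternative run. Of 390 values (39 genes in 10 comparisons), 384 stayed on the same side of the threshold with DESeq2 size factors, 346 with library totals, 358 without a filter, 377 with the strict filter, 360 with the groups of a comparison alone, 365 with DESeq2's Wald test, 366 without 3 libraries doubted from earlier results (replicate 3 of TNF_6h, replicate 1 of IL_TNF_24h, replicate 2 of Ctrl_0h) and 359 without replicate 2 of IL_6h and replicate 3 of IL_TNF_6h, a pair chosen after the data were seen. Over the fits that each left out 1 library, 7905 of 8190 values stayed. The cause of the changes that follow was not tested.

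Library totals called 15 of the 39 genes lower in TNF_6h in place of 8, 7 higher in TNF_24h against TNF_6h in place of 4, 6 lower in IL_TNF_6h against IL_6h in place of 2, 1 lower in IL_TNF_24h against IL_24h in place of 0, and for the difference between TNF with and without IL 6 higher at 6 h in place of 3 and 15 higher at 24 h in place of 9. For genes higher in TNF_24h against TNF_6h the count was 2 without a filter and 7 with the strict filter or the Wald test. For genes higher in IL_TNF_24h against IL_24h it was 4 without a filter and 15 with the 2 groups alone, and for those lower it was 1 with the Wald test, without the 3 libraries or without the 2. In IL_TNF_6h against IL_6h it was 0 higher with the 2 groups alone and 4 lower without the 3 libraries. The difference at 6 h had 5 higher with the strict filter or the Wald test, that between the times with IL had 8 in place of 4 with the Wald test, and TNF_24h had 17 higher in place of 11 without the 2 libraries.

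Leaving out 1 library gave 10 to 17 genes higher in TNF_24h (17 without replicate 2 of IL_6h), 1 to 6 higher and 1 to 5 lower in TNF_24h against TNF_6h, 1 to 2 higher and 2 to 5 lower in IL_TNF_6h against IL_6h, 4 to 12 higher in IL_TNF_24h against IL_24h (4 without replicate 1 or 2 of IL_24h or replicate 2 or 3 of IL_TNF_24h), 2 to 5 higher at 6 h and 5 to 10 higher at 24 h for the difference between TNF with and without IL. For the same difference 6 to 13 genes were lower at 6 h, in place of 9, and 4 to 7 at 24 h, in place of 5. Over all genes, library totals called 1918 higher in TNF_6h in place of 2928, and the difference between the times with IL had 484 higher and 436 lower with the Wald test and 496 and 496 without the 3 libraries, in place of 295 and 278. Without 1 library it had between 177 and 193 higher and between 166 and 171 lower in the fits that moved it most. In IL_TNF_24h against IL_24h 511 and 508 genes were lower without replicate 1 or 2 of IL_24h, in place of 791, and 1043 genes in place of 1812 were higher for the difference at 24 h without replicate 2 of IL_24h.

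The replicate numbers share only a number: correlations of same-numbered deviations ran from -0.31 to 0.36, with 2 of 21 over 0.1. With the replicate block, 388 of 390 values stayed, Slc16a1 was not called for the difference at 24 h (1.05, adjusted p 0.0592) and Mdh2 was called in IL_TNF_24h against IL_24h (0.44, adjusted p 0.0478). Each of the 39 genes had at least 36 counts in each library.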

Other observations

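HIF-1 is known to switch on glycolytic genes, and 18 of 19 genes of the HIF pathway and its known targets outside the pathways described above were tested. In TNF_6h 6 of the 18 rose and 5 fell (18.8% and 20.5% of all genes), in TNF_24h 5 and 8 (20.9% and 24.4%), in TNF_24h against TNF_6h 1 and 5 (12.7% and 10.9%), in IL_TNF_6h against IL_6h 0 and 7 (7.09% and 6.98%), and in IL_TNF_24h against IL_24h 1 and 3 (6.03% and 5.08%). The median log2 fold changes were -0.02, -0.16, -0.14, -0.31 and -0.11, against -0.04, -0.09, 0.01, -0.01 and 0.00 over all genes. Hif1a rose in TNF_24h (from 31.1 ± 2.73 to 66.8 ± 4.63 CPM, 1.10 ± 0.23), as did P4ha1, a collagen prolyl hydroxylase gene (1.58 ± 0.09). Vegfa, an angiogenic growth factor gene, rose in TNF_6h (from 20.9 ± 2.87 to 93.02 ± 8.42 CPM, 2.15 ± 0.14) and was lower in TNF_24h than in TNF_6h (-1.62 ± 0.14). Ndrg1 fell in TNF_6h (-1.57 ± 0.14), TNF_24h (from 66.6 ± 15.6 to 16.7 ± 0.342 CPM) and IL_TNF_24h against IL_24h (-1.20 ± 0.14), and Mxi1, a repressor of the MYC network, in TNF_6h (-1.13 ± 0.15), TNF_24h (-1.80 ± 0.15) and IL_TNF_6h against IL_6h (-1.45 ± 0.15). P4ha2 fell in TNF_6h (-1.22 ± 0.22), and Epas1, which encodes HIF-2 alpha, fell in TNF_6h (-1.44 ± 0.29), TNF_24h (-1.13 ± 0.28) and IL_TNF_6h against IL_6h (from 5.64 ± 1.45 to 2.004 ± 0.325 CPM, -1.49 ± 0.26). Egln3 fell in TNF_24h (-2.22 ± 0.57), also against TNF_6h (-2.03 ± 0.56), and Ankrd37 in TNF_24h (-1.41 ± 0.43) and IL_TNF_6h against IL_6h (-1.59 ± 0.46), both below 4 CPM in every group mean of these comparisons.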
